A study of Mus musculus with 15 samples.

Results

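The genes described here are 47 mouse genes that copy DNA or make its building blocks, from the factors that mark replication origins to the enzymes that supply deoxynucleotides. They were chosen by name, from their known roles, with earlier results of these data known. They were looked up by Ensembl identifier in the count table of 49585 genes. All 47 were found, and all 47 were among the 15223 genes with enough counts to be tested. The libraries came from wild-type E14 embryonic stem cells, an established mouse line kept before the experiment in 0.4 µM PD0325901, a MEK inhibitor, 3 µM CHIR99021, a GSK3 inhibitor, and 4 ng/ml Lif. The cells were then embedded in growth factor reduced Matrigel, a basement membrane gel, at 2000 cells per µl. N2B27 medium was added with 1 of 5 supplements, each with 3 libraries: 2iLif, FGF2/Activin (also written FAK in the labels), PD032, an Aurora kinase A inhibitor (Aurka inh), or both of the last (PD032+ Aurka inh, called the combination here). PD032, Aurka inh and the combination are called the inhibitor groups here, although 2iLif holds inhibitors too. All groups share the cell line, the maintenance medium and the gel. The labels give no inhibitor dose, treatment time, compound behind Aurka inh or full name of PD032, and no group received N2B27 alone.

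DNA replication begins when the origin recognition complex, Cdc6 and Cdt1 load the ring-shaped MCM helicase onto DNA, which geminin prevents from happening again in the same cycle. Cdc45 and the GINS complex then switch the helicase on, primase and the DNA polymerases copy the strands with the help of the Pcna clamp, and ribonucleotide reductase, thymidylate synthase and thymidine kinase supply nucleotides. Many of these genes are known targets of E2F transcription factors, which the RB proteins restrain, and embryonic stem cells are known for fast cycles with a large share of cells in S phase.

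Total counts lay between 15199507 and 15818758 per library in 2iLif and FGF2/Activin and between 16010904 and 24202544 in the inhibitor groups. Levels are CPM, counts scaled to each library's total after TMM adjustment. Differences are log2 fold changes from edgeR fitted on all 15 libraries, with p adjusted over all genes tested, and a gene passed at an adjusted p under 0.05. A signed value with its SE in parentheses after a comparison is such a log2 fold change, and the gene passed. The labels do not say that replicates came from separate cultures, so each p reflects library-to-library spread alone, which may be technical. Expressed as edgeR's biological coefficient of variation, the spread ranged from 1.77% in FGF2/Activin and 4.52% in 2iLif to 8.90% in the combination, 9.32% with PD032 and 11.1% with Aurka inh, while the fit used 1 estimate per gene for all groups, so p-values among the inhibitor groups can be too small. File names of the 2iLif and FGF2/Activin libraries follow a different pattern from those of the 9 inhibitor libraries. Wherever an inhibitor group is set against 2iLif, the medium and this naming style cannot be told apart. Replicate 2 stood apart within the inhibitor groups: 21 of the 47 genes were highest in replicate 2 in all 3 of these groups, against 20.2% of the genes tested, and 5 were lowest there, against 20.8%. The fit of all libraries had no term for the replicate number, so calls among these groups ignore any pairing by it. The stem cell markers summed to between 1602 and 2337 CPM in every library, while markers of primitive endoderm, mesoderm, fibroblasts, trophoblast and neuroectoderm each summed to at most 58.6 CPM. These sums moved with the groups: neuroectoderm markers had 8.64 to 10.8 CPM in 2iLif, 47.3 to 51.9 in FGF2/Activin and 18.1 to 58.6 in the inhibitor groups. Fibroblast markers had 2.47 to 3.04, 13.9 to 15.8 and 4.13 to 19.5 CPM in the same order, with Postn at 0 in every library. Trophoblast markers had 55.7 to 57.3, 6.68 to 8.43 and at most 55.2 CPM. Stem cell markers had 2305 to 2337 CPM in 2iLif, 1780 to 1817 in FGF2/Activin and 1602 to 1833 in PD032. In Aurka inh they had 1752 to 2068 CPM and in the combination 1940 to 2169. The part of all these markers in the results was not tested. In these bulk samples, fewer cells in S phase and less of an RNA per cell cannot be told apart.

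The replication genes differed little between media compared with all genes tested, which were not matched to them for level. The part of expression level in this gap was not tested. The ratio of the highest to the lowest of the 5 group means had a median of 1.30 over the 47 genes, from 1.13 in Rpa3 to 1.83 in Orc1, against 1.81 over all genes tested. The ratio reached 1.5 in 5 of the 47 genes, or 10.6%, against 64.6% of all genes tested. Those 5 were Orc1, Tk1 (ratio 1.77), Rfc4 (1.67), Cdc6 (1.51) and Chaf1b (1.5). Levels per kilobase used every base that is exon in any transcript of the gene. The highest means over the groups were those of Mcm5 at 156 CPM per kb, Rrm2 at 156, Mcm3 at 149 and Pcna at 145. The lowest were those of Gins3 at 7.61, E2f2 at 4.90 and Fen1 at 2.45. For Pcna this length was 2400 bases, while its longest protein-coding transcript has 1518, so the order can depend on the length used.

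Summed over the 47 genes, the level was 9619.9 ± 155 CPM (SD, n = 3; 9512, 9549.5 and 9798 by library) in 2iLif and 10189.5 ± 37.8 CPM (SD, n = 3; 10149, 10225 and 10195 by library) in FGF2/Activin. With PD032 it was 8623 ± 212 CPM (SD, n = 3; 8431, 8851 and 8587 by library), with Aurka inh 9509.6 ± 157 CPM (SD, n = 3; 9351, 9665 and 9513 by library), and with both 9137 ± 109 CPM (SD, n = 3; 9012, 9190.4 and 9208 by library). The sums of the 3 PD032 libraries were below those of all 12 other libraries, and those of FGF2/Activin were above all others. PD032 had the lowest group mean for 29 of the 47 genes, against 18.3% of all genes tested, and the highest for Pold1 and Timeless alone. FGF2/Activin had the highest group mean for 22 genes, against 29.0% of all genes tested, 2iLif for 13 (27.1%), Aurka inh for 7 (12.3%) and the combination for 3 (13.5%). The 2iLif and Aurka inh counts were near these shares.

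**Figure D1:**
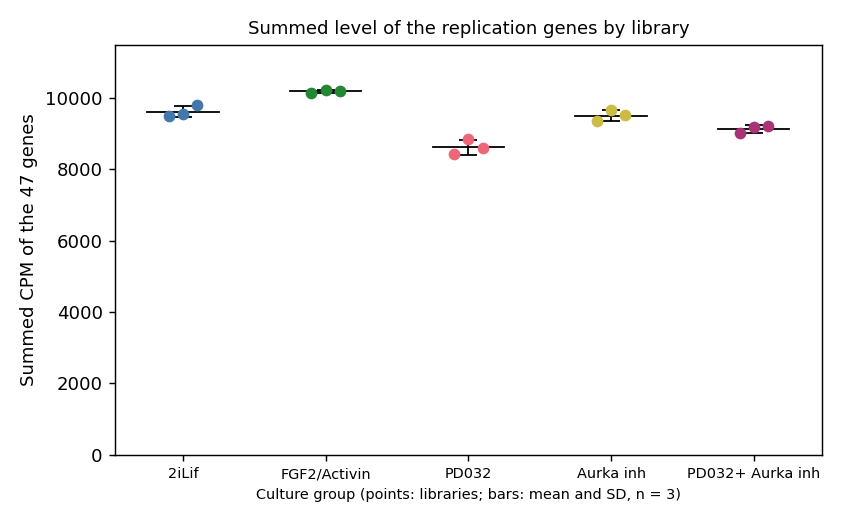
Summed CPM of the 47 replication genes (vertical axis, from 0) in each culture group; points are libraries, horizontal bars the mean and error bars the SD of n = 3. The PD032 libraries lie between 8431 and 8851 CPM and the FGF2/Activin libraries between 10149 and 10225 CPM.

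**Figure D2:**
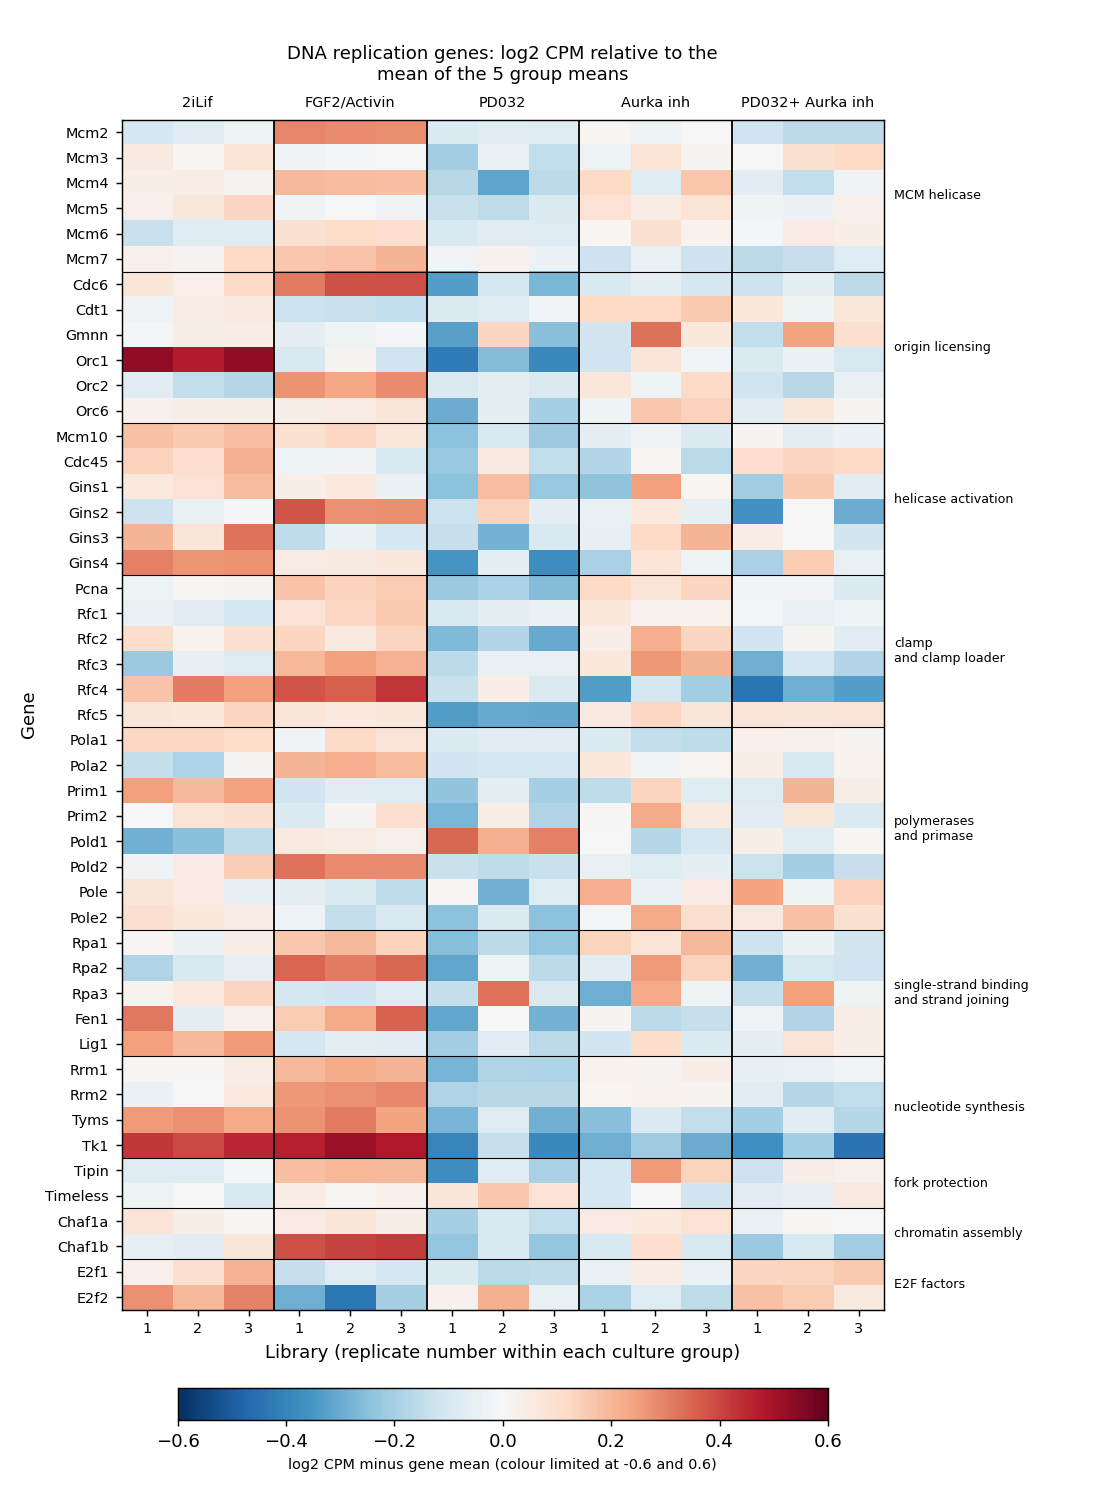
Level of each replication gene in each of the 15 libraries, as log2 CPM minus the gene's mean over the 5 group means (red above, blue below, colour limited at -0.6 and 0.6); rows are ordered by role and columns by group and replicate number. The PD032 columns are mostly blue, with Pold1 and Timeless red in all 3 and several other genes, among them Rpa3, E2f2 and Gins1, red in replicate 2. Orc1 is high in 2iLif alone, and Tk1 and Tyms are high in 2iLif and FGF2/Activin.

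Since many replication genes are known E2F targets, their promoters were searched for E2F words. RefSeq promoters (build GRCm38.p6, 250 bases before to 50 after a start) were found for 38 of the 47 genes. The words TTTCCCGC, TTTGGCGC and TTTCGCGC were sought on both strands; they can overlap each other, as they do in Mcm5 and Mcm6. At least 1 of them stood in 13 of the 38 promoters, or 34.2%, against 1.84% of 32851 promoters of the same length. CCAAT, the word of NF-Y, stood in 63.2% against 37.4%, and TTTGAA, the core of the CHR element, in 10.5% against 17.9%. Below are stretches of the promoters of 4 genes that carry such words, with the words in capitals, and of Tk1. Tk1 had a wide range over the media, and its promoter held no exact match to these words. Its stretch runs from 200 to 79 bases before the RefSeq start, so the bases nearest the start are not shown. Each stretch reads 5′ to 3′ on the gene's own strand.
Orc1 (chr4:108579367-108579434, plus strand): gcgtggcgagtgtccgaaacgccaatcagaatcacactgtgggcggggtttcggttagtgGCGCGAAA
Mcm5 (chr8:75109296-75109427, plus strand): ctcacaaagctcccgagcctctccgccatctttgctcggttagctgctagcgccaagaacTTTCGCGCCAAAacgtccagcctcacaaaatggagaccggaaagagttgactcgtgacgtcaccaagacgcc
Mcm6 (chr1:128359706-128359875, minus strand): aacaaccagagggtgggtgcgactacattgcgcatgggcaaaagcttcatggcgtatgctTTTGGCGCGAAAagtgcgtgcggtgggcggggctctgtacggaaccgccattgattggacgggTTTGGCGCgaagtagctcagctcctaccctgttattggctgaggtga
Pola1 (chrX:93632226-93632353, minus strand): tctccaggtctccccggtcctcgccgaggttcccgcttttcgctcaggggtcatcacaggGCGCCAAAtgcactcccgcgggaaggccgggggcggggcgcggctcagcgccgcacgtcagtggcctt
Tk1 (chr11:117826093-117826214, minus strand): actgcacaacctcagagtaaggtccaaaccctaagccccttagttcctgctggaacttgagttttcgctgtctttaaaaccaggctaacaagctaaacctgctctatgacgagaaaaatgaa

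In Orc1 the word lies on the opposite strand 27 bases before the RefSeq start. GENCODE M21 starts Orc1 earlier, and the last 12 bases of the stretch, the word among them, lie inside the gene as it draws it. The position is therefore upstream by RefSeq alone, and in Mcm6 the nearest of 3 words lies 47 bases before it. In PD032 against 2iLif the median log2 fold change was -0.19 over the 13 genes with a word and -0.22 over the 25 without, and in PD032 against Aurka inh it was -0.16 and -0.13. In FGF2/Activin against 2iLif it was -0.06 with and 0.14 without. These medians describe the genes and were not tested.

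The MCM helicase subunits, the motor that unwinds DNA, were abundant in every medium, and their subunits did not move as a block. Mcm2 had 706, 701 and 700.2 CPM in FGF2/Activin and 536, 553 and 567 in 2iLif, with no overlap (log2 fold change 0.35, SE 0.037, edgeR adjusted p = 4.7e-07). Its other groups lay between 516 and 582 CPM. In FGF2/Activin against 2iLif, Mcm4, Mcm6 and Mcm7 also rose, while Mcm3 did not pass and Mcm5 had -0.09, which did not pass either. Mcm5 had 635, 651 and 678 CPM in 2iLif, 565, 559 and 586 in PD032 and 659, 639 and 658 in Aurka inh, and was lower in PD032 than in Aurka inh (log2 fold change -0.19, SE 0.04, edgeR adjusted p = 0.00096). The PD032 libraries of Mcm5 lay below all libraries of the other 4 groups. Mcm4 was lower in PD032 too, at 354, 319 and 356 CPM against 431, 376 and 445 in Aurka inh (-0.28, SE 0.06). Mcm7 had 546 ± 11.7 CPM in PD032 and 513 ± 16.6 in Aurka inh and did not pass.

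Among the licensing factors, Orc1, the largest subunit of the origin recognition complex, had the widest range of the 47 genes. Orc1 (ENSMUSG00000028587, chromosome 4, 108579423 to 108614833 on mm10) had 129, 124 and 129 CPM in 2iLif. It had 83.9, 90.3 and 82.3 in FGF2/Activin, 66.7, 74.6 and 68.3 in PD032, 82.4, 94.3 and 88.5 in Aurka inh and 84.1, 87.3 and 83.7 in the combination. All 2iLif libraries stood above all others, and the PD032 libraries below all others. Orc1, whose promoter carries TTTCGCGC, was lower in FGF2/Activin than in 2iLif (-0.58, SE 0.059, edgeR adjusted p = 2.8e-07) and lower in PD032 than in Aurka inh (-0.34, SE 0.059, edgeR adjusted p = 0.00022). Orc2, another subunit of that complex, went the other way in FGF2/Activin, where it had 168, 163 and 169 CPM against 133, 126 and 123 in 2iLif, and rose (0.39, SE 0.05). Orc6 had 96.8 ± 1.36 CPM there and 95.6 ± 0.382 in 2iLif, and did not pass.

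Cdc6, which with Cdt1 loads the helicase, was highest in FGF2/Activin at 120.4, 126 and 127 CPM, above 2iLif at 102, 99 and 105 (0.29, SE 0.057). The 3 inhibitor groups lay below both, between 77 and 93.4 CPM. Cdt1 had 227, 226 and 224 CPM in FGF2/Activin and 244, 256 and 258 in 2iLif, and was lower in the former (-0.16, SE 0.042, edgeR adjusted p = 0.0028). Cdt1 was highest in Aurka inh, at 269, 269.7 and 276 CPM, and rose there over PD032, where it had 233, 236 and 245 CPM. Gmnn, which encodes geminin, the inhibitor of Cdt1, passed in none of the 7 comparisons by edgeR's adjusted p. Its level was 104, 142 and 109 CPM in PD032, 121, 164 and 136 in Aurka inh and 117, 154 and 139 in the combination, with replicate 2 highest each time. In PD032 against Aurka inh the Gmnn difference was -0.24 with an adjusted p of 0.11, and the adjusted p ranged from 1.1e-05 with the replicate number as a block to 0.45 without Aurka inh replicate 2.

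Of the genes that switch the helicase on, Cdc45, part of the active helicase, had 69, 70.3 and 70 CPM in the combination, above Aurka inh at 57, 64.6 and 57.5 (0.23, SE 0.068) and PD032 at 55, 66.9 and 58.1 (0.22, SE 0.068). Its replicate 2 reached 66.9 CPM in PD032, and no PD032 or Aurka inh library reached the 69 CPM of the lowest combination library. The call for Cdc45 was lost in 5 of 15 alternative settings against Aurka inh and in 3 of 15 against PD032. Gins2 and Gins3, subunits of the same 4-part GINS complex, moved in opposite directions in FGF2/Activin. Gins2 had 87, 80.8 and 81.3 CPM there against 61.3, 64.8 and 66.2 in 2iLif (0.37, SE 0.086), and Gins3 18.4, 19.9 and 19 against 23.6, 21.6 and 25.7 (-0.30, SE 0.089). Gins4 had 97.3, 95 and 95.1 CPM in 2iLif and fell in FGF2/Activin, where it had 81.7, 81.9 and 82.6. Gins1 had 56.4 ± 1.94 CPM in FGF2/Activin and 60.1 ± 2.9 in 2iLif and did not pass. Mcm10, a factor of helicase activation, was lower in PD032 (202, 224 and 206 CPM) than in Aurka inh (229.7, 236 and 226 CPM).

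Among the clamp genes, Rfc5, a subunit of the complex that loads the clamp, separated PD032 from every other medium. Rfc5 (ENSMUSG00000029363, chromosome 5, 117378103 to 117389047) had 182, 186 and 185 CPM in PD032 and between 238 and 251 CPM in the other 12 libraries. Rfc5 was lower in PD032 than in Aurka inh (-0.40, SE 0.038, edgeR adjusted p = 4.0e-07) and higher in the combination than in PD032 (0.39, SE 0.038, edgeR adjusted p = 5.5e-07). The combination and Aurka inh differed by -0.01 (SE 0.037), less than the spread between libraries. Pcna, the sliding clamp itself, had 298, 304 and 289 CPM in PD032, 377, 368 and 379.6 in Aurka inh and 342, 343 and 328 in the combination. The 3 groups did not overlap, and Pcna was lower in PD032 than in Aurka inh (-0.34, SE 0.039, edgeR adjusted p = 3.6e-06) and lower in the combination than in Aurka inh (-0.15, SE 0.039).

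Other loader subunits followed other orders. Rfc4 had 40.5, 45.6 and 41.8 CPM in PD032, 35.2, 41.3 and 38.5 in Aurka inh and 32.8, 36.3 and 35.4 in the combination, and was lower in the combination than in PD032 (-0.29, SE 0.069). Rfc4 thus moved against Rfc5 in that comparison. Rfc3 had 65.3, 74.7 and 71.9 CPM in Aurka inh and 50.9, 58.1 and 55.2 in the combination, where it was lower (-0.37, SE 0.066, edgeR adjusted p = 0.00042). Rfc2 had 122 ± 7.74 CPM in Aurka inh, 107 ± 4.87 in the combination and 93.9 ± 4.34 in PD032, and was lower in PD032 than in Aurka inh (-0.38, SE 0.056). Rfc1, the large subunit, rose in FGF2/Activin over 2iLif and passed in none of the 3 comparisons among inhibitor groups.

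Pold1, the catalytic subunit of DNA polymerase delta, was the main exception among the 47 genes to the low levels in PD032. Pold1 (ENSMUSG00000038644, chromosome 7, 44532746 to 44548849) had 308, 282 and 299 CPM in PD032, above every library of the other groups. It had 243, 216 and 227 CPM in Aurka inh and 249, 231 and 244 in the combination, and PD032 exceeded Aurka inh (0.38, SE 0.053, edgeR adjusted p = 3.0e-05). Its partner subunit Pold2 had 126, 125 and 126 CPM in PD032 and 134, 132 and 133 in Aurka inh, which did not pass. Pole2, a subunit of DNA polymerase epsilon, was lower in PD032 at 46.6, 52.1 and 46.6 CPM than in Aurka inh at 54.8, 64.8 and 59 (-0.30, SE 0.066). Prim1, the catalytic subunit of primase, and Pola2, a subunit of the polymerase alpha complex that holds primase, moved apart in FGF2/Activin. Prim1 fell there from 117 ± 2.3 to 94.4 ± 1.6 CPM (-0.31, SE 0.077) and Pola2 rose from 118 ± 8.96 to 146 ± 1.43 CPM (0.31, SE 0.054).

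Rpa2, a subunit of the protein that coats single-stranded DNA, had 201, 195 and 200 CPM in FGF2/Activin and 139, 148 and 152 in 2iLif, the largest rise among the 47 genes in that comparison (log2 fold change 0.44, SE 0.08, edgeR adjusted p = 0.00015). Rpa1, the large subunit, had 301, 322 and 306 CPM in PD032, 394, 380.4 and 411 in Aurka inh and 329.5, 351 and 332 in the combination. The groups of Rpa1 did not overlap, and the differences were -0.35 in PD032 against Aurka inh and -0.23 in the combination against Aurka inh. Rpa3 passed in none of the 7 comparisons, and its replicate 2 was highest in each inhibitor group (52.2 CPM in PD032, 48.7 in Aurka inh, 49.4 in the combination). Lig1, the ligase that seals new strands, was highest in 2iLif at 415, 401 and 418 CPM and fell in FGF2/Activin to 327, 337 and 335 CPM (-0.31, SE 0.058). Fen1, the nuclease that trims flaps, had between 4.75 and 7.54 CPM in all libraries and passed nowhere.

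The nucleotide synthesis genes split into pairs. Rrm1 and Rrm2, the subunits of ribonucleotide reductase, both rose in FGF2/Activin over 2iLif, Rrm2 by 0.27. Rrm2 had 513, 518 and 523 CPM in FGF2/Activin, 418, 427 and 446 in 2iLif, 378, 382 and 382 in PD032 and 433, 435 and 433 in Aurka inh. The PD032 libraries of Rrm2 lay below all libraries of Aurka inh (-0.19, SE 0.041, edgeR adjusted p = 0.0013). Tk1 and Tyms, which make thymidine monophosphate from thymidine and from dUMP, instead separated the 3 inhibitor groups from 2iLif and FGF2/Activin. Tk1 (ENSMUSG00000025574, chromosome 11, 117815526 to 117826092) had 90.8, 89.1 and 93 CPM in 2iLif and 93.5, 96.9 and 94.6 in FGF2/Activin. It had 51.4, 61.5 and 51.8 in PD032, 55.3, 58.5 and 55.1 in Aurka inh and 52.5, 58.8 and 49.8 in the combination, with no inhibitor library above 61.5 CPM. Tyms had between 147 and 156 CPM in the 6 libraries of 2iLif and FGF2/Activin and between 103 and 120.5 CPM in the 9 inhibitor libraries. These are the libraries of both naming styles, so for Tk1 and Tyms the medium and the style cannot be told apart. Neither gene passed in any comparison within a style.

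Of the remaining roles, Tipin, which with Timeless protects stalled forks, rose in FGF2/Activin over 2iLif and was lower in PD032 than in Aurka inh (-0.31, SE 0.083). Timeless went the other way in the latter comparison, at 229.7, 244 and 232 CPM in PD032 and 203, 219 and 202 in Aurka inh (0.18, SE 0.048). Chaf1b, a subunit of the chromatin assembly factor CAF-1, had 166, 168 and 169.7 CPM in FGF2/Activin and 123, 121 and 134 in 2iLif (0.42, SE 0.063). Its partner Chaf1a had 158 ± 2.18 and 156 ± 3.63 CPM in the same groups and did not pass. Both E2F genes fell in FGF2/Activin. E2f2 had 19.3, 17.5 and 20.6 CPM there and 28.7, 27.1 and 29.1 in 2iLif (log2 fold change -0.56, SE 0.082, edgeR adjusted p = 1.5e-05), and E2f1 59.5, 62 and 61 against 66.9, 69.9 and 75.7 (-0.22, SE 0.053). E2f1 had its highest group mean in the combination, at 71.5, 71.9 and 73 CPM, and rose there over PD032 (0.27, SE 0.052, edgeR adjusted p = 0.00051).

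**Figure D3:**
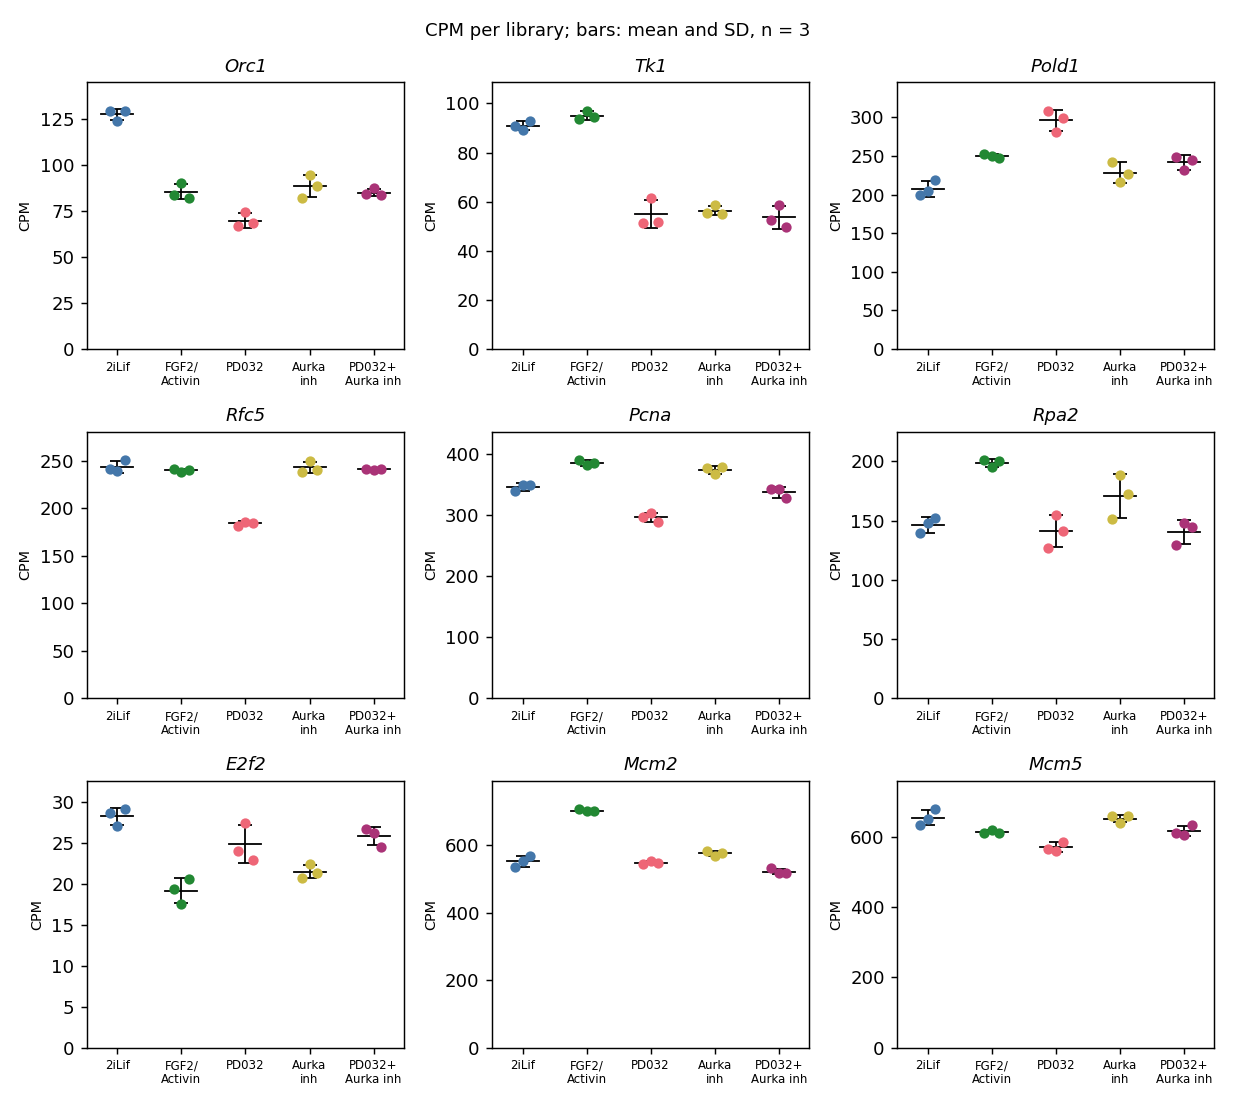
CPM (vertical axes, from 0, separate for each gene) of 9 replication genes in the 5 culture groups; points are libraries, horizontal bars the mean and error bars the SD of n = 3. Orc1 is highest in 2iLif, Tk1 lies near 55 CPM in all inhibitor groups, Pold1 is highest and Rfc5 and Pcna lowest in PD032, and Rpa2 and Mcm2 are highest in FGF2/Activin.

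FGF2/Activin against 2iLif sets growth factor medium against medium with inhibitors and Lif, and the parts of these cannot be told apart. In this comparison 19 of the 47 genes rose and 9 fell, and 19 did not pass; of all genes tested, 33.3% rose and 32.6% fell. The median over the 47 genes was 0.03, against -0.01 over all genes tested, and no member changed by 1.5-fold, against 43.5% of all genes. Of the MCM subunits 4 of 6 were higher, and of the clamp group 3 of 6. Helicase activation had 1 of 6 higher and 3 lower, and both E2F factors were lower. In every setting run, 14 of the rises and 7 of the falls were called, among them Mcm2, Orc2, Rpa2, Chaf1b and Rrm2 for the rises and Orc1, E2f2, Lig1 and Prim1 for the falls. With only the 6 libraries of these groups fitted, the falls numbered 14.

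PD032 against Aurka inh sets the inhibitors side by side within one naming style. In PD032, 23 of the 47 genes were lower and 3 higher, against 19.7% and 25.8% of all genes tested, and the median was -0.15 against 0.02. Of the licensing factors 5 of 6 were lower, of the MCM subunits 4 of 6, of the clamp group 4 of 6 and of the nucleotide synthesis genes 2 of 4. The 3 higher genes were Pold1, Timeless and E2f2. In every setting run, 15 of the 23 lower genes and Pold1 kept their call. Every library of PD032 lay below every library of Aurka inh for 25 genes, against 20.4% of all genes tested, and above for 4, against 27.4%. With the replicate number as a block, which pairs libraries among these groups, 35 genes were lower, and without replicate 2 in all 3 inhibitor groups 26 were. No member changed by 1.5-fold.

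Adding the Aurora inhibitor to PD032 was read in the combination against PD032. Here 18 of the 47 genes were higher and 4 lower, against 20% and 23.8% of all genes tested, with a median of 0.11 against 0.01. The higher genes included Rfc5, Pole2, Orc1, E2f1, Mcm3, Pcna and Rrm1, which passed in every setting run, at 0.18 to 0.39. The lower genes were Pold1 and Rfc4, both at -0.29 and called in every setting, and Timeless and Mcm7 at -0.13 and -0.12. The split moved with the scaling: with library size alone 10 were higher and 6 lower. It also depended on single libraries, since 9 were higher without PD032 replicate 1 and 10 without PD032 replicate 3 or without combination replicate 3. The lower genes numbered 2 without combination replicate 1, PD032 replicate 2 or PD032 replicate 3. With the replicate block 27 were higher and 5 lower, or 7 when only the 9 inhibitor libraries were fitted. The comparison shares the PD032 libraries with the one before, so opposite signs in both are not independent.

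**Figure D4:**
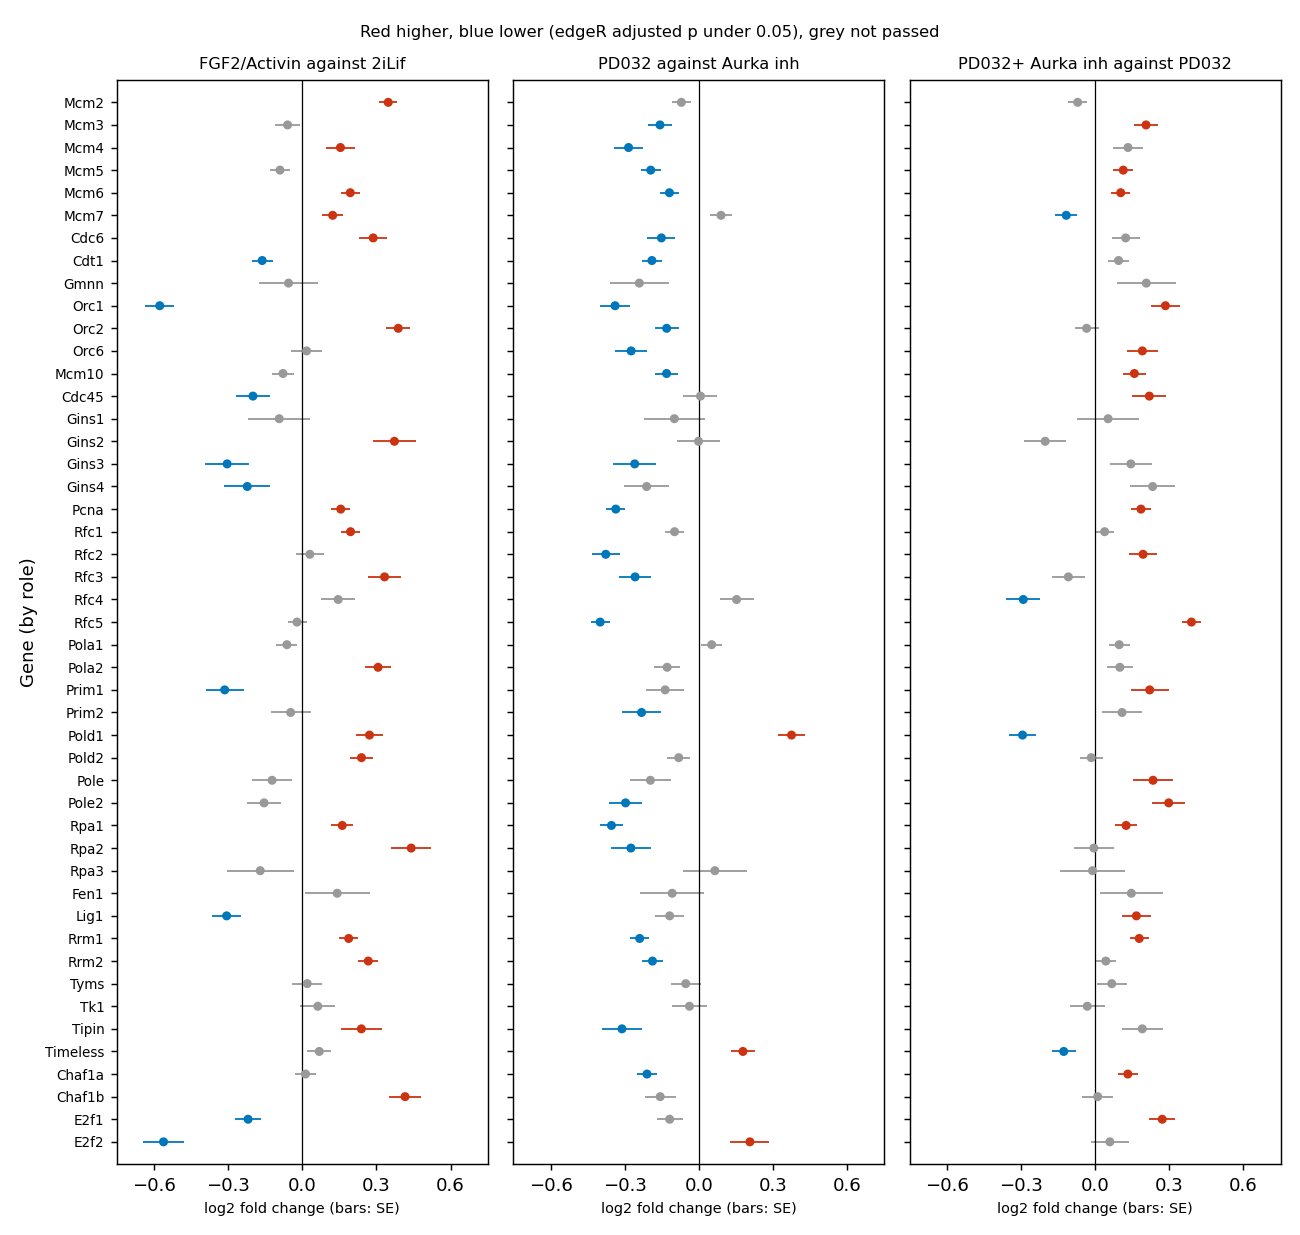
Log2 fold change (horizontal axis) of each replication gene in FGF2/Activin against 2iLif, PD032 against Aurka inh and the combination against PD032; error bars are SE, red marks genes that were higher and blue genes that were lower at an edgeR adjusted p under 0.05, and grey genes did not pass. In PD032 against Aurka inh 23 genes are lower and 3 higher, and in the combination against PD032 18 are higher and 4 lower.

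Adding PD032 to the Aurora inhibitor was read in the combination against Aurka inh, where 8 of the 47 genes were lower and 4 higher, against 16.3% and 18.6% of all genes tested. In this fit of all libraries the lower genes were near the share of all genes. The median was -0.05 against 0.01. The lower genes were Rfc3, Rpa2, Rpa1, Rfc2, Orc2, Pcna, Rrm2 and Mcm2, from -0.37 to -0.14, and Rfc3 and Rpa1 alone passed in every setting run. The higher genes were E2f2, Cdc45, E2f1 and Pola1, at 0.27, 0.23, 0.15 and 0.15. Without combination replicate 1, 0 members were higher by edgeR's adjusted p and 4 at an unadjusted p under 0.05, and 1 was higher without Aurka inh replicate 1 or replicate 3. With the replicate block the lower genes numbered 21, and with library size alone the split was 3 higher and 11 lower.

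Against 2iLif, whose libraries all 3 comparisons share, values for the inhibitor groups stand side by side and cross the naming styles. In PD032 29 of the 47 genes were lower and 2 higher, against 30.9% and 32.1% of all genes tested. In Aurka inh 14 were lower and 9 higher, against 29.5% and 28.9%, and in the combination 13 were lower and 2 higher, against 23.8% in each direction. The lower genes in Aurka inh (29.8% of the 47) and in the combination (27.7%) were near the shares of all genes. The medians were -0.20, -0.00 and -0.09, against 0.01 over all genes in each. Orc1 had log2 fold changes of -0.87, -0.53 and -0.59 in that order, Tk1 -0.73, -0.69 and -0.76, and Tyms -0.46, -0.41 and -0.40. Rfc4 had -0.30, -0.46 and -0.60, and Pold1 rose in all 3, by 0.52, 0.14 and 0.22. The rise of Pold1 in Aurka inh lost its call without the filter on low counts and without Aurka inh replicate 1 or 3 or 2iLif replicate 1 or 2, and the libraries overlapped, with 216 CPM in Aurka inh replicate 2 and 218 in 2iLif replicate 3. Mcm5 was lower in PD032 (-0.20, SE 0.04) and had -0.01 in Aurka inh, which did not pass. In Aurka inh the split was 12 higher and 12 lower with library size alone, and the higher genes numbered 4 without Aurka inh replicate 3 and 5 without 2iLif replicate 1. In PD032 only Pold1 of the 2 higher genes kept its call without PD032 replicate 2, 2iLif replicate 1 or 2iLif replicate 3. In the combination 1 gene was higher without combination replicate 2 or 3 or 2iLif replicate 1 or 2, and with the replicate block, and 4 were without replicate 2 in all inhibitor groups.

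Other genes of these pathways were followed in 4 lists that hold none of the 47. Of all genes tested, 25.8% were higher and 19.7% lower in PD032 against Aurka inh, and 33.3% higher and 32.6% lower in FGF2/Activin against 2iLif. Of 24 further nucleotide synthesis genes, 15 were lower and 2 higher in PD032 against Aurka inh (median -0.25), and 13 were higher and 3 lower in FGF2/Activin against 2iLif (median 0.24). The largest value by size in PD032 against Aurka inh was positive, 0.67 for Rrm2b, a further subunit of ribonucleotide reductase. Umps, which completes uridine monophosphate synthesis, had 65.1 ± 7.13 CPM in PD032 and 100.4 ± 9.21 in Aurka inh (-0.63, SE 0.11, edgeR adjusted p = 0.00015). Atic, which performs the last steps of purine synthesis, had 194 ± 12.4 and 279 ± 6.05 CPM (-0.53, SE 0.049), and Shmt1, which feeds one-carbon units to thymidylate synthesis, 109.7 ± 13.3 and 159 ± 10.7 CPM (-0.53, SE 0.068). Dut, which makes dUMP for Tyms, rose in FGF2/Activin from 131 ± 5.5 to 261 ± 4.33 CPM (0.99, SE 0.16). Of 28 further origin and fork genes, 10 were lower and 1 higher in PD032 against Aurka inh (median -0.09), and in FGF2/Activin against 2iLif 10 were higher and 11 lower, close to the shares of all genes. Dna2, a nuclease and helicase of the fork, had 85.4 ± 4.53 CPM in Aurka inh, 97.8 ± 4.4 in the combination and 55.8 ± 3.05 in PD032 (-0.62 and 0.81). In PD032 against Aurka inh the highest value of this list was 1.21, for Pold4, a further subunit of DNA polymerase delta. Pold4 had -0.66 in the combination against PD032, the lowest of the list there.

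Of 22 regulators of S phase entry, 14 were higher and 6 lower in FGF2/Activin against 2iLif, and 7 were higher and 10 lower in PD032 against Aurka inh. The 6 lower and the 7 higher were near the shares of all genes. Ccnd2, a D-type cyclin, had 2.32 ± 0.967 CPM in 2iLif, 42.2 ± 1.88 in FGF2/Activin, 26 ± 8.24 in Aurka inh, 14.4 ± 3.7 in PD032 and 5.31 ± 0.645 in the combination. Ccnd3, another, ran from 198 ± 6.6 CPM in 2iLif to 77.1 ± 3.76 in FGF2/Activin (-1.36, SE 0.063) and was higher in PD032 than in Aurka inh (0.85, SE 0.064). Cdkn1a, the CDK inhibitor p21, had 63.4, 61.4 and 61.5 CPM in PD032, 194, 183 and 198 in Aurka inh and 140, 153 and 132 in the combination (log2 fold change in PD032 against Aurka inh -1.63, SE 0.058, edgeR adjusted p = 5.4e-12). Of 12 G2 and M phase genes, 3 were lower and 1 higher in PD032 against Aurka inh, against 19.7% and 25.8% of all genes tested. The lower ones were near the share of all genes. Against 2iLif, 8 of the 12 were higher with PD032, 9 with Aurka inh and 6 with both, against 32.1%, 28.9% and 23.8% of all genes tested, with medians of 0.21, 0.21 and 0.13. These comparisons with 2iLif cross the naming styles, so the medium and the style cannot be told apart.

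Some counts are uncertain. Pcna has a pseudogene, Pcna-ps2, 99.2% identical over 781 bases, which held 23617 counts against 95950 for Pcna; with both summed, the group means were 434, 484, 369, 466 and 420 CPM in 2iLif, FGF2/Activin, PD032, Aurka inh and the combination, in the same order as Pcna alone. Mcm7 has the pseudogene Gm5487 (97.7% identical over 2157 bases), Rrm2 has Gm48455 (95.5% over 419) and Tyms has Tyms-ps (93.9% over 935). These pseudogenes are not among the genes counted, so reads shared with them cannot be seen. The strand setting of the counting is not given in the sources used here. Mcm7, Rfc4, Orc6, Cdc45, Orc2, Gins2, Rfc5 and Chaf1a each overlap a well-expressed protein-coding gene on the opposite strand, so without the strand setting reads from both cannot be told apart. Among those named above for their changes, Orc2 held 38613 counts and its partner Nif3l1 21310. Cdc45 held 17878 and Ufd1 15077. Gins2 held 18478 and Gse1 16903, and Rfc5 held 63520 and Wsb2 8521. Rfc4 held 12242 and Eif4a2 132818. Lig1 and Tk1 overlap such genes with 1816 and 420 counts. Fen1 held 1631 counts in all libraries together and overlaps Tmem258 and an antisense gene, so its level is uncertain. In the deposited log2 table, all 157 member differences that passed had the same direction as in the counts.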

How the data were processed

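Poly(A)-selected RNA of 15 libraries, 5 culture groups of 3, was sequenced with a directional kit, per the labels' protocols. The authors deposited raw counts per gene and a second table of normalized values on a log2 scale; STAR, DESeq2 and mm10 are named, without their roles, per the submitters' processing notes. For versions, counting tool, annotation and strand, the authors' choice is not given in the sources used here. Groups were taken from the sample titles. edgeR 4.0.16 (R 4.3.3) fitted its quasi-likelihood model to the counts of all 15 libraries with 1 term per group, TMM factors and filterByExpr, which kept 15223 genes. The 7 comparisons were contrasts of this fit, each with Benjamini-Hochberg adjustment over all genes tested. The procedure was tested on simulated data. It recovered from 50.7% (PD032 against 2iLif) to 68.7% (the combination against PD032) of simulated 1.5-fold changes, so a gene that did not pass may still differ. The simulation gave all groups the same spread per gene, so it does not bear on their unequal spreads. The deposited log2 values served only as a check of direction. CPM are counts over TMM-scaled totals, and exon lengths and gene positions came from GENCODE M21. Within every group, replicate counts differed beyond sampling noise, with a chi-square per degree of freedom from 1.23 to 18.3.

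The members and lists were chosen with earlier results of these data known. Fold changes were given for at most the 15 passed members with the largest change in a comparison, for Mcm2, Mcm5, Cdc6, Cdt1, Gmnn, Pcna, Rrm2, Tk1, E2f1 and E2f2, and for at most 4 passed genes of each other list. Those of Rfc5 in the combination against Aurka inh, Pold1 in Aurka inh against 2iLif, and Timeless and Mcm7 were added after their values were seen. Pold4 and Rrm2b, from the other lists, were added in the same way. Same-numbered libraries of the 3 inhibitor groups deviated together from their group means, with a correlation across genes of 0.170 to 0.483 in every pair. The replicate block therefore took the number to pair them, while the fit of all libraries, which gave the calls, had no such term. The correlation was -0.0448 to 0.0654 for pairs with 2iLif or FGF2/Activin. Pseudogene copies were sought with blastn 2.17.0 at 90% identity or more over at least 200 bases. Alternatives were DESeq2 1.42.0, other scalings, no filter on low counts, fits of fewer libraries, the replicate block and leaving out each library.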

Additional observations from a re-analysis of the deposited data

How the results depend on the processing

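In FGF2/Activin against 2iLif the number of replication genes that fell was 14 with only the 2 groups fitted, against 9. In the combination against PD032 the higher genes, 18 in the fit of all libraries, numbered 10 with library size alone, 10 with only the 2 groups and 9 with only the 9 inhibitor libraries, and 9 to 20 when 1 library was left out. The lower genes, 4 at first, numbered 2 with DESeq2 size factors, 2 with only the 2 groups, 2 with the 9 libraries and 7 with the replicate block in the 9 libraries, and 2 to 4 with 1 library left out. In the combination against Aurka inh the higher genes went from 4 to 2 without a filter on low counts, 0 with the 2 groups alone (3 at an unadjusted p under 0.05), 1 with the 9 libraries and 0 to 4 with 1 library left out. The lower genes went from 8 to 3 without the filter, 5 with the 2 groups, 21 with the replicate block and 20 with the block in the 9 libraries. In PD032 against Aurka inh the higher genes went from 3 to 5 with library size alone, 1 with the 2 groups and 5 with the block in the 9 libraries, and the lower genes from 23 to 35 with the block. Against 2iLif, the higher genes in PD032 went from 2 to 4 with library size alone and 1 to 2 with 1 library left out. In Aurka inh they went from 9 to 3 without the filter and 4 to 9 with 1 library left out. In the combination they went from 2 to 1 without the filter, 1 with the replicate block, 4 without replicate 2 in all inhibitor groups and 1 to 3 with 1 library left out. The cause of these shifts was not tested. The replicate block moved no other count of members by over 1.5 times. No scaling moved the median of all genes by over 0.1, the largest shift being 0.073 (library size, PD032 against 2iLif).

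The differences that changed sign were all small and did not pass in the fit of all libraries. Rrm2 in the combination against PD032 became -0.00134 with library size alone, and leaving out 1 library gave 0.024 to 0.064. Tk1 ranged from -0.10 to 0.056 in that comparison and from -0.12 to 0.0093 in PD032 against Aurka inh with 1 library left out. For Gmnn the range was -0.13 to 0.093 in the combination against Aurka inh, -0.047 to 0.18 in Aurka inh against 2iLif and -0.045 to 0.14 in the combination against 2iLif. Without replicate 2 in all inhibitor groups Gmnn had 0.00226, -0.046 and -0.044 in the same order. Mcm2 in PD032 against 2iLif became 0.063 with library size alone, 0.017 with the 2 groups and 0.017 with the replicate block. Mcm5 in Aurka inh against 2iLif became 0.011 with DESeq2 size factors, 0.044 with library size alone, 0.011 with the DESeq2 test, 0.030 with the 2 groups, 0.030 with the block and 0.00838 without replicate 2 in all inhibitor groups, and ranged from -0.017 to 0.035 with 1 library left out. In the combination against 2iLif, Cdt1 ranged from -0.024 to 0.039 and E2f1 from -0.022 to 0.072. The alternatives without replicate 2 in all inhibitor groups and those with only the 9 inhibitor libraries were chosen after seeing the data.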
